A study of Mus musculus with 2 samples.

Results

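Genes that copy the DNA and genes that pull the copies apart were compared between parental Ba/F3 cells and BaF/3 (#BEB1), a clone selected for its ability to bind Ecrg4. The set holds 48 genes, 27 of DNA replication and 21 of the mitotic spindle and its checkpoint. They were given by name and not by any measured value, though with earlier results of these data known. They carry 60 of the 39429 probes on the array and are 48 of 31709 named genes. Ba/F3 is a mouse pro-B cell line that needs IL-3 to grow. BaF/3 (#BEB1) is 1 clone, obtained after infection with a retroviral cDNA library of CG4 rat oligodendrocyte precursor cells and repeated sorting of cells that bound Ecrg4, and it was grown with IL-3 like the parental cells. RNA of each line was measured once, on 1 Agilent 1-colour array each on the same slide, so the clone, the infection, the sorting and the RNA sample cannot be told apart, and no difference below has a test or a replicate check.

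Cells copy each chromosome once per cycle. The MCM helicase is loaded on origins in G1 by Cdc6 and Cdt1, is switched on in S phase together with GINS, and unwinds DNA for the polymerases. In mitosis the spindle attaches to kinetochores, the checkpoint waits until every kinetochore is attached, and Cdc20 then starts the steps that free separase to split the sister chromatids. Replication genes are known for E2F sites in their promoters and are mostly transcribed from late G1 into S phase, whereas mitotic genes are known for CHR elements, often near NF-Y boxes, and peak in G2 and mitosis. In bulk RNA of a culture, fewer cells in a phase and less RNA per cell cannot be told apart.

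The 2 deposits of the authors assigned the arrays to the lines in opposite ways. Over 39429 probes, the table's column for the parental cells correlated at r = 0.982285 with the scanner output deposited for the parental cells and at r = 0.999998 with that deposited for BaF/3 (#BEB1), and the table's BaF/3 (#BEB1) column likewise matched the scanner output of the parental cells at r = 0.999996. The arrays are therefore called A (scanner output deposited for the parental cells) and B (scanner output deposited for BaF/3 (#BEB1)), and no direction by cell line is given. Signals well above background came from 19480 probes (49.4%) of array A and from 19659 (49.9%) of array B, and 0 probes were saturated. Levels are log2 of the spot signal over the array's 75th percentile, a signal of 1506 for array A and 1080 for array B, and a difference is array A minus array B. Of 12 B-lineage markers, Igll1 had no probe by that name and 2 were measured on both arrays. These were Cd79b at −1.85 and 0.45 and Vpreb1 at −4.57 and −3.18 on arrays A and B. Defining genes of the lineage (Cd79a, Pax5, Ebf1, Rag1 and Rag2) were not well above background on either, whereas 7 of 8 haematopoietic and IL-3 receptor genes were measured. Of 8 macrophage markers 4 were measured and of 7 oligodendrocyte precursor markers 3, with Olig1, Olig2, Sox10 and Pdgfra not well above background. The part of these markers in the results was not tested.

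The promoters are shown first, because the RNA differences further on are set beside their motifs. They are RefSeq sequences of mouse build GRCm38.p6, running from 250 bases before to 50 bases after the gene start. They were searched on both strands for E2F sites (TTTCCCGC, TTTGGCGC or TTTCGCGC), for CHR elements (TTTGAA or TTCGAA) and for NF-Y boxes (CCAAT). The helicase genes Mcm7 and Mcm6, which had the lowest differences among replication genes with an E2F match, and Mcm5, which had the highest, are shown with E2F matches in capitals. Mcm7 lies at chr5:138171834-138172133 on the minus strand, Mcm6 at chr1:128359656-128359955 on the minus strand and Mcm5 at chr8:75109259-75109558 on the plus strand.
Mcm7: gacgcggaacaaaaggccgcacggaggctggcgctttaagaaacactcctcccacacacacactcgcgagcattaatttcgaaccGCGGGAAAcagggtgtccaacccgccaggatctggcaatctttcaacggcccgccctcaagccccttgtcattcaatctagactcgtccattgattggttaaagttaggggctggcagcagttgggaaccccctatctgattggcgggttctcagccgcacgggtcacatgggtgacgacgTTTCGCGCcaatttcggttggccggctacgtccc
Mcm6: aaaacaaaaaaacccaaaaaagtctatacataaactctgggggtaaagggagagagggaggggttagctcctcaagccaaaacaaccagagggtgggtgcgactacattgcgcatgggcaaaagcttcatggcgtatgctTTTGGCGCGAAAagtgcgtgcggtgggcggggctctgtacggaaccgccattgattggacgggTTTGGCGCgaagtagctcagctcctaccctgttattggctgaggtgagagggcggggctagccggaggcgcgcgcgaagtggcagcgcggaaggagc
Mcm5: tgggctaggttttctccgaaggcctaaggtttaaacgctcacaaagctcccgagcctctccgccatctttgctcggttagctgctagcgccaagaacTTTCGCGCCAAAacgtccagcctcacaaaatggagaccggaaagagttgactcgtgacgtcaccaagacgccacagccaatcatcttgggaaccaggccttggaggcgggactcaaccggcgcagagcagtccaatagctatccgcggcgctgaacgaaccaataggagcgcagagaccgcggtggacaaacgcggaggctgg
Mcm7 has a further start in RefSeq, which is not shown. In Mcm5 and in Mcm6 a pair of E2F matches on opposite strands overlapped. The next 3 promoters were chosen in the same way among mitotic genes with a CHR match, and the capitals mark it. They belong to Espl1, the separase that cuts cohesin, at chr15:102296043-102296342 on the plus strand, to Cenpa, the histone variant of centromeres, at chr5:30666636-30666935 on the plus strand, and to Ndc80, a kinetochore protein that binds microtubules, at chr17:71526808-71527107 on the minus strand.
Espl1: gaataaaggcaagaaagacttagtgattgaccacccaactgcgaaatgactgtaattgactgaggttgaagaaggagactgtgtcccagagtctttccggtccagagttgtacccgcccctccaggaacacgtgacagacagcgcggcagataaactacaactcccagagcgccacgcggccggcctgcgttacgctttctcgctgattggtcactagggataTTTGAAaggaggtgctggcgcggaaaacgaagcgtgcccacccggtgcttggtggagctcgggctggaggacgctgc
Cenpa: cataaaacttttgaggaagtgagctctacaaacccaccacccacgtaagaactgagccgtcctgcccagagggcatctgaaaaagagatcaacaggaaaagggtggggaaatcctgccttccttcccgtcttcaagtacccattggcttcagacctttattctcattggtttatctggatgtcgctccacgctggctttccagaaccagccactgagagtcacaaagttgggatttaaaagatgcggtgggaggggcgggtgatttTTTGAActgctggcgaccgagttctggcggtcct
Ndc80: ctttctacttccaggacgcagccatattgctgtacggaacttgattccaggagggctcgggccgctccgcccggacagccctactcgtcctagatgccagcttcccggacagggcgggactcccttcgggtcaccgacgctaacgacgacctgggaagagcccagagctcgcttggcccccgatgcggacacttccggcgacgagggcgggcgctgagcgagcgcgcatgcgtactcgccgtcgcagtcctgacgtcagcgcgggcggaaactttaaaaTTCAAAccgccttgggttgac
The CHR matches began 27 bases before the start in Espl1, and 17 and 30 bases after it in Cenpa and Ndc80. The promoter of Tk1, thymidine kinase of the nucleotide salvage pathway, at chr11:117825965-117826264 on the minus strand, held none of the 3 motifs and is shown because Tk1 was among the members furthest apart between the arrays.
Tk1: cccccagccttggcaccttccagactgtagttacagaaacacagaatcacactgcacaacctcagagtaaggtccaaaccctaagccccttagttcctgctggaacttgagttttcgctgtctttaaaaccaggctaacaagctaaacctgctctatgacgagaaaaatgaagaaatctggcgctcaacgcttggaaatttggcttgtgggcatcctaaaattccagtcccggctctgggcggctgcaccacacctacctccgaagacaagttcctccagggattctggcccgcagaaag

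A promoter was listed for 21 of the 27 replication members and 17 of the 21 mitotic members. E2F matches stood in 9 of the 21 replication promoters (42.9%), namely Mcm3, Mcm5, Mcm6, Mcm7, Cdc6, Cdt1, Pola1, Pold1 and Rfc3, in 0 of the 17 mitotic promoters and in 2.12% of the promoters of all 27025 genes. CHR matches showed the opposite pattern, with 12 of the 17 mitotic promoters (70.6%), 3 of the 21 replication promoters (14.3%) and 21.7% of all genes. Within 50 bases of the start, a window chosen after the matches were seen, the same 12 mitotic promoters had one, against 0 replication promoters and 6.12% of all genes. They belonged to Aurka, Plk1, Bub1, Bub1b, Ttk, Cdc20, Espl1, Cenpa, Ndc80, Kif11, Kif23 and Top2a. NF-Y boxes did not separate the classes, with 14 replication promoters (66.7%) and 12 mitotic promoters (70.6%), against 41.1% of all genes. A match is a run of letters and not a measured binding site, and members were chosen by function, so these shares describe the genes. The lists of other replication and other mitotic genes used further on held E2F matches in 12 of 40 (30%) and 8 of 72 (11.1%) promoters, and CHR matches in 9 of 40 (22.5%) and 44 of 72 (61.1%).

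**Figure D1:**
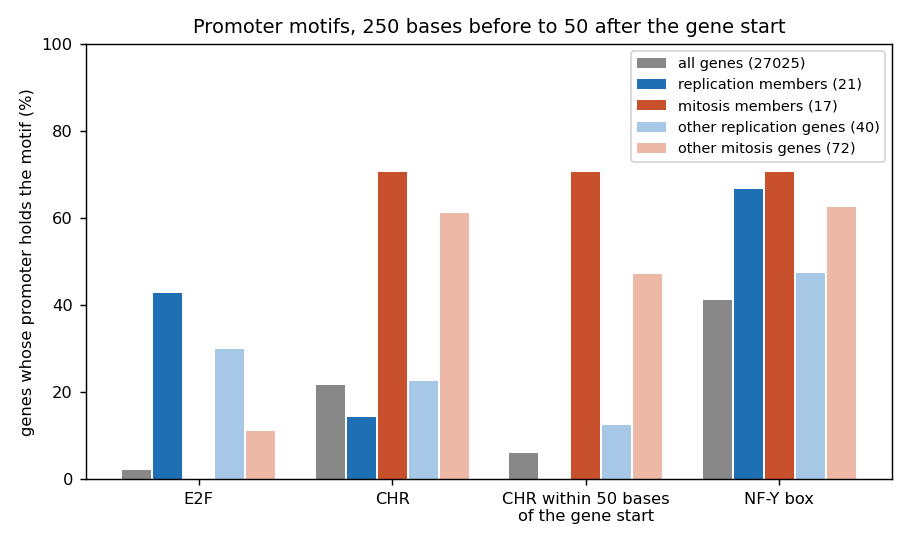
Share of promoters (percent, vertical axis) with at least 1 match to each motif, for the members, the other genes of both processes and all genes; bars start at 0. E2F matches stood in 42.9% of the replication members' promoters and in 0 mitotic ones, and CHR matches in 14.3% and 70.6%.

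RNA of nearly all members was detected on both arrays. Well above background on both were 47 of 48 members, all 27 of replication and 20 of 21 of mitosis, as against 14815 of all 31709 genes. The exception was Aurkb, the kinase of the chromosomal passenger complex, whose 1 probe was not well above background on either array, while its partners Incenp and Birc5 were measured. Of the 47 members, 37 (78.7%) were higher on array B and 10 on array A, beside 51.3% of all measured genes higher on array B. This split rested on the scaling, and when each array was scaled to its median, which moved the median of all genes by 0.29, 13 of 27 replication and 9 of 20 mitotic members were higher on array B, beside 31.1% of all measured genes. The median difference was −0.24 on the log2 scale for the 47 members and −0.02 for all measured genes. Relative to the all-gene median, 22 of 27 replication members and 15 of 20 mitotic members lay on the array B side. These counts were 21 of 27 and 13 of 20 under normexp background correction, and 18 of 27 and 12 of 21 with no filter on dim probes.

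The shifts were small in size. Members ranged from −1.08 to 0.52, while the quartiles of all measured genes were −0.40 and 0.34. The 2-fold line was passed by 3 members on the array B side, Gins2, Espl1 and Tk1, beside 7.3% of all measured genes, and by 0 members on the array A side, beside 3.85%. At 1.5-fold the counts were 10 members (21.3%) higher on array B, beside 17.6% of all genes, and 0 on array A, beside 12.5%. Under median scaling 5 members (10.6%) passed 1.5-fold on the array A side, beside 27.8% of all genes, and 4 (8.51%) on the array B side, beside 9.49%. The members' share past 1.5-fold was thus near that of all genes on the array B side and below it on the array A side at both of these scalings. Quantile scaling put 14 members (29.8%) past 1.5-fold on the array B side, beside 15.6% of all genes. With the 75th percentile taken from detected probes only, 14 members passed there, beside 20.7% of all genes. On the array B side the members' share was thus above that of all genes at the latter scalings, with 0 members past 1.5-fold on the array A side. At the 75th percentile of all probes, just inside the 2-fold line was Tk1 at −1.0 and just outside Rfc5 at −0.91. Just inside the 1.5-fold line was Birc5 at −0.64 and just outside Mcm4 at −0.56.

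**Figure D2:**
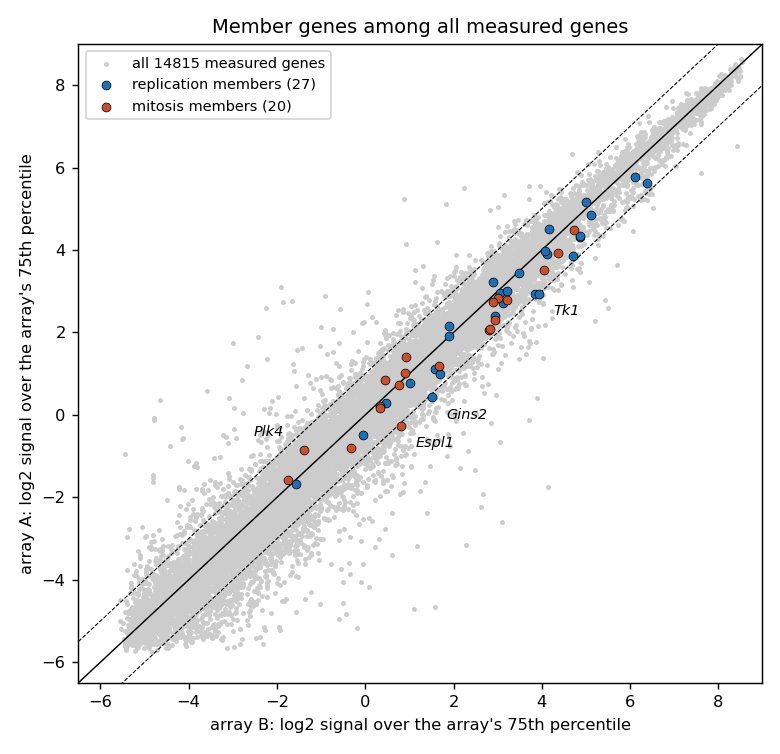
Level on array A against level on array B for all 14815 measured genes (grey) and the 47 measured members (colours by class); both axes are log2 of signal over the array's 75th percentile, with lines at equal level and at 2-fold. The members lie near the line of equal level, 37 of them on the array B side, and 3 reach 2-fold.

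Replication and mitotic members had medians close to each other. The median difference was −0.27 for replication (22 of 27 higher on array B) and −0.20 for mitosis (15 of 20). The gap between the 2 medians, mitosis minus replication, was 0.07 on the log2 scale, and it stayed between 0.03 and 0.11 across 12 alternative processings. It was smaller than the interquartile range within either class, 0.46 for replication and 0.49 for mitosis. The interquartile range of all measured genes was 0.74.

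**Figure D3:**
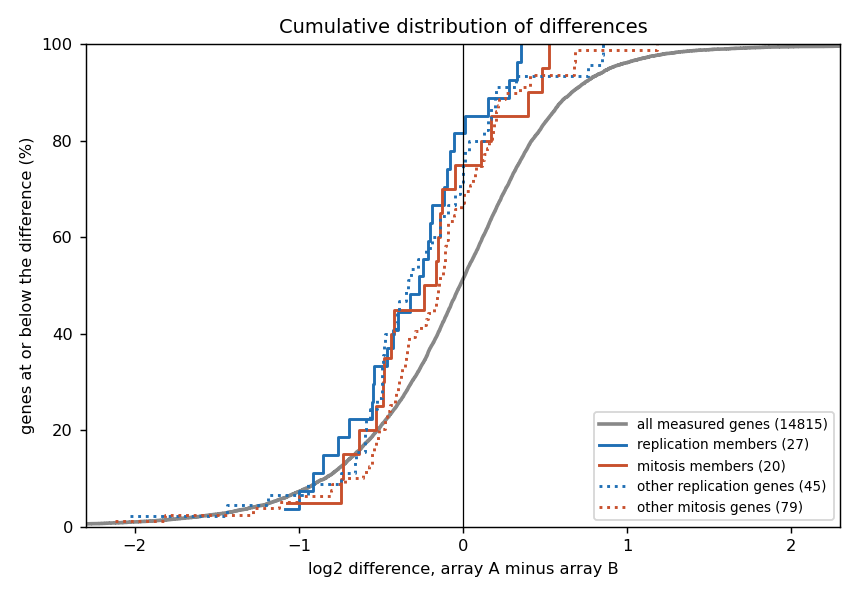
Cumulative share (percent, vertical axis) of genes by their difference, array A minus array B, in log2 units, for replication members, mitotic members, the other genes of both processes and all measured genes. The curves of the 27 replication and 20 mitotic members run close together, with medians of −0.27 and −0.20, left of the all-gene median of −0.02.

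Within-array precision could be read from repeated spots. Bub1, a kinase of the spindle checkpoint, is printed 10 times on the array, and its level was 0.71 ± 0.073 (SD, n = 10 spots) on array A and 0.76 ± 0.053 (SD, n = 10 spots) on array B. The difference of −0.05 was smaller in size than the SD of single spots on either array. That SD is not the error of a difference between means. Over 214 probes with 10 spots each, the median SD was 0.058 for array A and 0.054 for array B. The scanner software's own error model, which also allows for signal-dependent noise, gave larger errors. For each gene the mean error of its measured probes was divided by the square root of their number, as if probes were independent. This gave 0.118 to 0.207 for the members' differences. Of 47 members, 24 lay more than 2 such errors from 0. On the array B side there were 20, beside 24.8% of all measured genes, and on the array A side 4, beside 21.5%. Of these 4, Mad2l1 and Rfc4 passed only through the division, since the errors of their separate probes were near 0.204. Under median scaling 9 members lay past 2 errors on the array B side and 8 on the array A side, beside 13.7% and 40.7% of all genes. These errors cover the measurement of 1 hybridisation and not the spread between cultures.

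The members are described by role below at the 75th percentile scaling, with the level on array A before that on array B, and scaling to the median adds 0.29 to every difference given. Helicase genes leaned to array B with 1 exception. Of Mcm2 to Mcm7 and Mcm10, which joins the helicase when origins fire, 6 were higher on array B and the median difference was −0.40. Mcm7 was at 3.86 on array A and 4.72 on array B, a difference of −0.85 (1.81-fold). Mcm6 was at 5.62 and 6.39 (−0.76, 1.70-fold), and Mcm4 at 4.32 and 4.87 (−0.56, 1.47-fold). Of the 7 genes, these 3 lay furthest to the array B side. Mcm2 stood at 2.71 and 3.11 (−0.40), Mcm3 at 4.84 and 5.11 (−0.27), and Mcm10 at 2.96 and 3.05 (−0.10). Mcm5 alone was higher on array A, at 4.52 against 4.17, a difference of 0.36. Its protein joins the same ring as those of the other MCM genes from Mcm2 to Mcm7, so the genes of 1 complex did not move by 1 amount.

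Licensing factors were all higher on array B. Cdt1, which brings the helicase to origins, was at 4.34 and 4.88 (−0.54), and Gmnn, the geminin that inhibits Cdt1, at 1.12 and 1.58 (−0.46). The loader and its inhibitor thus differed in the same direction by similar amounts. Cdc6, the ATPase that recruits the helicase, had a mean difference of −0.43, but its 2 probes gave −0.85 and −0.00. GINS subunits, which activate the helicase, were uneven. Gins2 had the lowest difference of all members, at 0.43 on array A and 1.52 on array B (−1.08, 2.12-fold, signals 2035 and 3096), lower than all but 6.03% of the differences of all measured genes. Gins1 was at 0.77 and 1.01 (−0.24), and Gins4 was level at 1.92 and 1.91 (0.01).

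Polymerase and primase genes had a median of −0.13 and varied among themselves. Pole, the catalytic subunit of the leading-strand polymerase, was at 2.39 on array A and 2.94 on array B (−0.55, 1 of 2 probes measured), whereas Pola1, the polymerase that extends primers, was at 2.17 and 1.89 (0.28). Pold1, of the lagging-strand polymerase, differed by −0.05 and Prim1, the primase, by −0.20. Pcna, the sliding clamp, was at 5.78 and 6.11 (−0.33). The clamp loader subunits did not move as a unit. Rfc5 was at 2.94 and 3.86 (−0.91, 1.88-fold), Rfc3 at 0.28 and 0.48 (−0.19), and Rfc4 at 3.21 and 2.89 (0.33, probes at 0.19 and 0.46). Among subunits of RPA, which coats single-stranded DNA, Rpa2 was at 1.0 and 1.69 (−0.69, 1.62-fold). Rpa1 was at 3.90 and 4.11 (−0.21), from probes at −0.45 and 0.02.

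In nucleotide supply 1 gene stood apart and 3 were within 0.15 of equal level. Tk1 was at 2.94 and 3.95 (−1.0, signals 11597 and 16641). Rrm1 and Rrm2, the subunits of ribonucleotide reductase, differed by −0.08 and 0.15, and Tyms, thymidylate synthase, by −0.11. Tk1 sits on the line of the 2-fold call, and in the authors' table its difference was −0.98, just short of it.

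**Figure D4:**
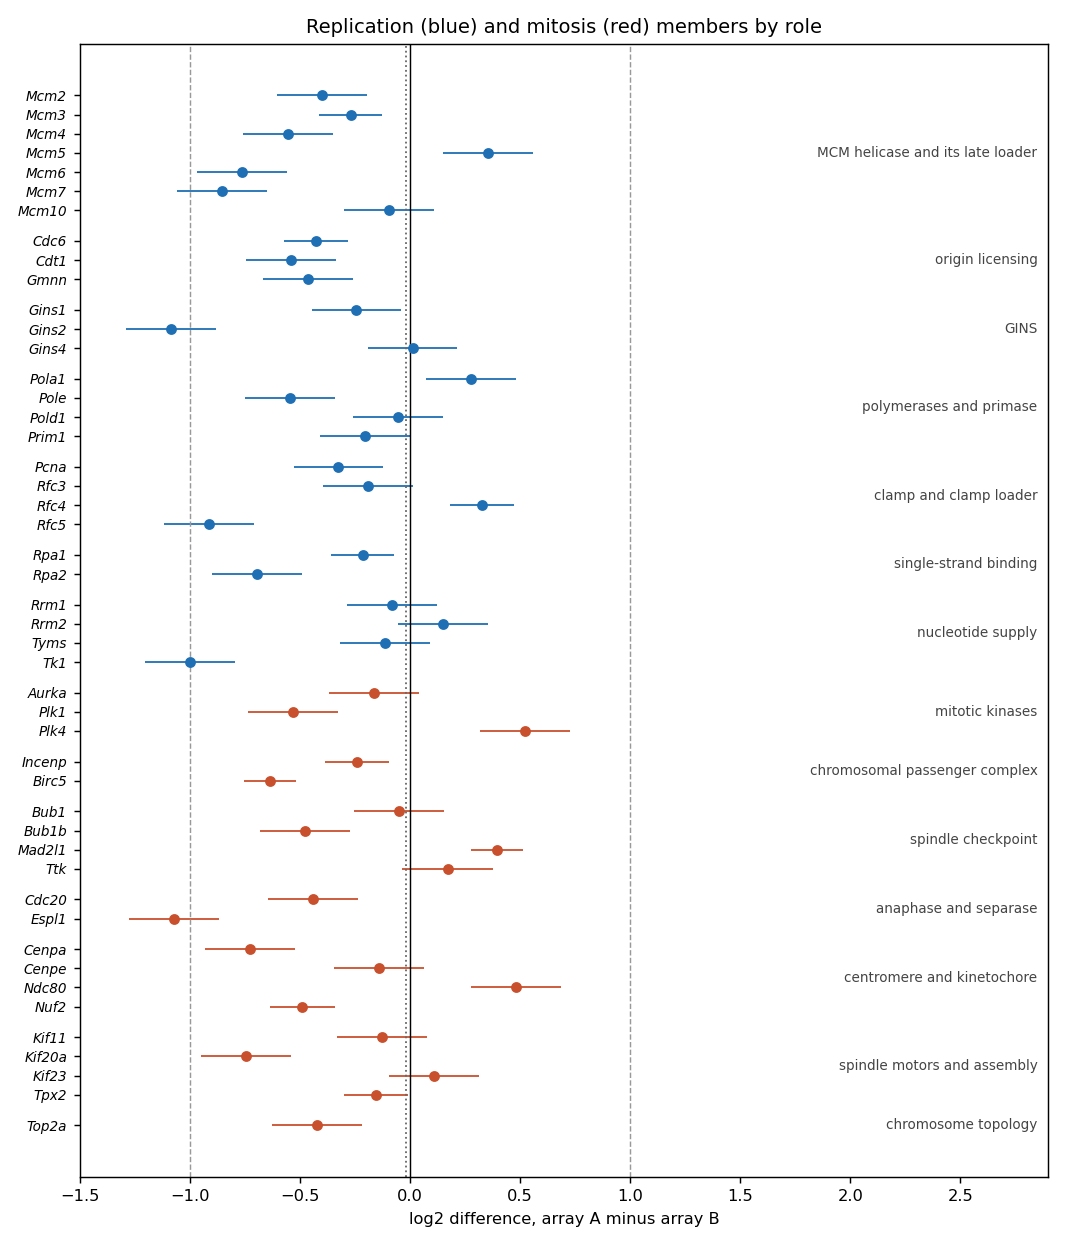
Difference of each of the 47 measured members, array A minus array B in log2 units (horizontal axis), grouped by role. Points are gene means over probes, the dotted line is the all-gene median and dashed lines are 2-fold. Error bars are the scanner software's error, the mean over a gene's probes divided by the square root of their number. Most roles lie left of 0 at this scaling, and Plk4, Ndc80, Mad2l1, Mcm5, Rfc4 and Pola1 lie furthest to the right.

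Mitotic kinases lay on both sides of 0, under median scaling too. Plk1, which drives entry into and passage through mitosis, was at 3.51 and 4.04 (−0.53), and Aurka, the kinase of spindle poles, at 2.84 and 3.0 (−0.16). Plk4, which starts centriole duplication, had the highest difference of all members, at −0.85 and −1.38 (0.52, 1.44-fold, signals 833 and 416). The 2 Polo-like kinases thus stood on opposite sides of 0 at this scaling. In the passenger complex, which corrects faulty attachments, Birc5 (survivin) was at 2.31 and 2.95 (−0.64, 1.55-fold), and its 3 probes lay between −0.72 and −0.55. Incenp, the scaffold of the complex, was at 4.49 and 4.73 (−0.24).

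The spindle checkpoint was evenly split at this scaling, with 2 genes on each side and a median of 0.06. Bub1b, which holds back Cdc20, was at 1.19 and 1.66 (−0.48), and Bub1 was level. Ttk, the kinase at the top of the checkpoint, was at −1.57 and −1.75 (0.17). Mad2l1, which also binds Cdc20, was at 0.85 and 0.45 (0.40), but its probes disagreed. They lie at different places of the gene in build mm9, and the first 30 of their 60 bases are shown for that reason. The first listed (chr6:66490836-66490895) gave −0.16, the second (chr6:66490067-66490126) 0.68 and the third (chr6:66490355-66490414) 0.67. Signals on arrays A and B were 10365 and 8331 for the first, 1270 and 568 for the second, and 1514 and 683 for the third. By its brightest probe Mad2l1 thus lay on the array B side, so the even split depended on averaging the probes.
Mad2l1 probe at −0.16: cgaaatgcagcagtaagacacatttctctt
Mad2l1 probe at 0.68: tgtgtgttattgttccatttcttgggttct
Mad2l1 probe at 0.67: agagaggcagggaggacagctttactattc
Of the 9 members with more than 1 measured probe, 3 had probes on both sides of 0, and the median range between probes was 0.47, beside 0.27 over 3152 such genes.

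Of the genes that act from anaphase on, Espl1, Cdc20 and Kif20a lay on the array B side and Kif23 did not. Espl1 was at −0.26 and 0.81 (−1.07, 2.10-fold, signals 1257 and 1898), and Cdc20, the activator of the anaphase-promoting complex, at 3.93 and 4.37 (−0.44). Kif20a, a kinesin of the central spindle, was at 2.09 and 2.83 (−0.74, 1.67-fold). Kif23, its fellow kinesin of the central spindle, was at 1.02 and 0.91 (0.11). The Espl1 and Gins2 values each rest on 1 probe, whose first 30 bases follow (chr15:102153644-102153882 and chr8:123112627-123112686, build mm9).
Espl1 probe: taaaccctcacagtaacctgtcgagcacag
Gins2 probe: ggccattaacctgaaacagagacagaagtg

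Kinetochore genes spread over the widest range among mitotic roles with more than 2 genes. Cenpa was at 2.07 and 2.80 (−0.73, 1.66-fold), whereas Ndc80 was at 1.42 and 0.93 (0.48, 1.40-fold). Nuf2, which pairs with Ndc80 in the same complex, was at −0.80 and −0.31 (−0.49). Its probes gave −0.83, from dim signals of 208 and 264, and −0.15, from signals of 3583 and 2856. Partners of 1 complex were thus on opposite sides of 0, as in the helicase and the clamp loader, and this held under median scaling. For Nuf2 under median scaling it rested on the dim probe, since the 0.29 added there exceeds the −0.15 of the brighter probe. Cenpe, the kinesin of kinetochores, differed by −0.14. Kif11, which pushes spindle poles apart, differed by −0.13, and Tpx2, which activates Aurka, by −0.15 from probes at −0.51 and 0.21. Top2a, the topoisomerase that untangles sister chromatids, was at 2.78 and 3.20 (−0.42).

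Members with and without a match in their promoters overlapped in their differences. Replication members with an E2F match had a median of −0.27 (n = 9) and those without one −0.21 (n = 12). Mitotic members with a CHR match had a median of −0.29 (n = 12) and those without one −0.14 (n = 5). The gap was widest for NF-Y boxes among mitotic members, with a median of −0.29 for those with a box (n = 12, from −1.07 to 0.17) and 0.40 for those without one (n = 5, from −0.64 to 0.52). The 0.40 is the value of Mad2l1, the middle of these 5 genes, whose probes disagreed. By its brightest probe Mad2l1 was at −0.16 and would still be the middle, so the width of this gap depended on averaging its probes. Among replication members the NF-Y gap ran the other way, with medians of −0.21 (n = 14) and −0.43 (n = 7). In the longer list of other mitotic genes the NF-Y gap was nearly absent, at −0.12 with a box (n = 44) and −0.17 without (n = 27). For CHR matches that list ran opposite to the mitotic members, at −0.11 with a match (n = 43) and −0.31 without (n = 28). The list of other replication genes ran the same way as the replication members for both E2F and NF-Y. Its medians were −0.37 with an E2F match (n = 12) and −0.28 without (n = 27). For NF-Y boxes they were −0.22 with a box (n = 19) and −0.33 without (n = 20). Mcm7 and Mcm5 both hold E2F matches and differed by −0.85 and 0.36, and Espl1 and Ndc80 both hold CHR matches and differed by −1.07 and 0.48. Tk1, with none of the motifs in this window, was at −1.0.

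Other genes of both processes had medians on the same side. The lists are textbook genes of each process that are not members, and they were chosen with earlier results of these data known. Of 45 measured replication genes, 33 were higher on array B (73.3%) with a median of −0.33, and of 79 mitotic genes 53 (67.1%) with a median of −0.14. The gap between these 2 medians, mitosis minus replication, was 0.19, wider than the 0.07 of the members. Under median scaling the medians lay on opposite sides of 0, at −0.04 and 0.15. The counts on the array B side were then 24 of 45 and 32 of 79, beside 31.1% of all genes. Among replication genes, 10 passed 1.5-fold on the array B side and 3 on the array A side, beside 17.6% and 12.5% of all measured genes. The share on the array B side, 22.2%, was near that of all genes, and under median scaling 4 genes passed on each side, beside 9.49% on the array B side and 27.8% on the array A side. The largest difference was that of Rfc2, a further clamp loader subunit, at −2.03 (4.08-fold), which lay far from Rfc5, Rfc3 and Rfc4. Uhrf1, which guides maintenance methylation at forks, differed by −1.44, from probes at −1.90, with dim signals of 81.6 and 219, and −0.97. Chaf1a and Chaf1b, which place histones on new DNA, differed by −0.60 and −0.94. Rnaseh2a and Rnaseh2c, of the RNase that removes ribonucleotides, differed by −0.60 and −1.19, and the probes of Rnaseh2a lay between −1.04 and −0.30. Wdhd1, Pola2, Clspn and Fen1 lay between −0.75 and −0.59. On the array A side stood the origin recognition genes Orc2 (0.85) and Orc4 (0.76) and the topoisomerase Top1 (0.85). Under normexp background correction Orc4 was at 0.51, and Fen1, Chaf1a and Rnaseh2a at −0.51, −0.56 and −0.57, all short of 1.5-fold. The counts past 1.5-fold were then 7 on the array B side and 2 on the array A side. Cdc7, the kinase that fires origins, was well above background on array B alone. The probe that passed there differed by −0.66 (1.58-fold) from dim signals of 28.5 and 32.2, with an error of 0.47.

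Among the other mitotic genes, 9 passed 1.5-fold on the array B side and 5 on the array A side, shares of 11.4% and 6.33% that were below those of all measured genes on both sides. Under median scaling the counts were 5 and 8, shares of 6.33% and 10.1%, beside 9.49% and 27.8% of all genes. On the array B side stood Cdca3 (−1.81), the condensin subunit Ncapd2 (−1.28), Cdca5 (−1.12), which protects cohesion, and the kinesin Kif2c (−1.0). Haus4 and Haus6, of the augmin complex, differed by −0.81 and −0.80, but the probes of Haus6 gave −0.01 and, from dim signals of 92.1 and 198, −1.58. Aspm differed by −0.72. Cenpf differed by −0.61 from dim signals of 52.5 and 57.4, and by −0.34 under quantile scaling and −0.39 under normexp, short of 1.5-fold. Cit, the citron kinase of cytokinesis, differed by −2.12 from dim signals of 56.5 and 176, and by −1.31 under normexp background correction. The 5 on the array A side were Cenpq at 1.18, Spc24, Zw10 and Cenpk at 0.68 each and Cenpw at 0.67.

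**Figure D5:**
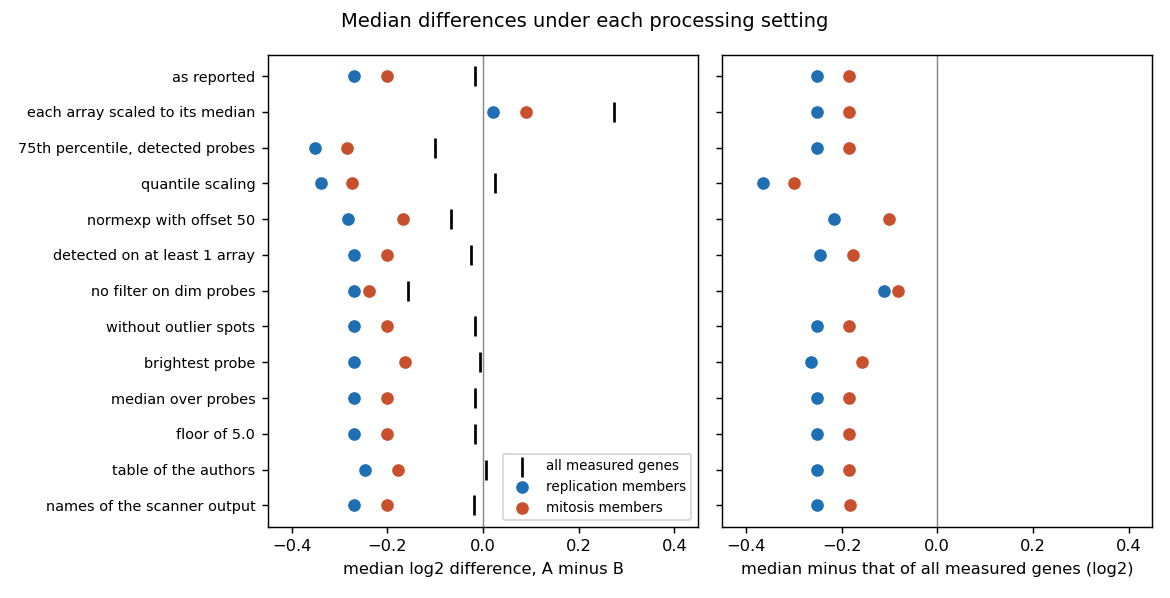
Median difference of replication members, mitotic members and all measured genes (log2 units, array A minus array B) under the processing used here and each of 12 alternatives, as differences (left) and minus the all-gene median (right). Both member medians lie below the all-gene median in every setting, while scaling to the array median moves all of them up, the replication median to 0.02 and the mitotic one to 0.09.

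The order of the medians held across processings even where the sign did not. Replication members stood below the all-gene median by 0.11 to 0.36 and mitotic members by 0.08 to 0.30 over the 12 alternatives. Gins2 and Espl1 were the members with the lowest differences, and under median scaling they were at −0.79 and −0.78, no longer 2-fold apart.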

How the data were processed

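Spot intensity of each array was deposited by the authors as scanner output of Agilent Feature Extraction 9.5.1.1, per the file headers with local background subtracted and trends across the array removed. The authors also deposited a table of log2 values (GeneSpring GX, floor of 1, each array scaled to its 75th percentile), used as an alternative. Control features were left out of 44397 features, which left 43020 spots. After a floor of 1, signals were taken relative to the 75th percentile of their array on a log2 scale, spots were averaged per probe, and probes well above background on both arrays were averaged per gene. A RefSeq accession named 26049 probes, a current symbol 3200 and a former symbol 930, while 9250 kept the scanner's name. No test was possible with 1 array per cell line, and the number of arrays limits the precision. Differences were read against all 14815 measured genes and against folds of 2 and 1.5. Members and lists were chosen with earlier results of these data known. Every member could be named, from the other lists every gene at least 1.5-fold apart, and markers by brightness or for defining the line. Other alternatives were the scaling (median, percentile over detected probes, quantile), normexp background correction, the filter on dim probes, outlier spots, the probe chosen per gene, a floor of 5 and the scanner's gene names. The calculation was tested on simulated data with planted changes larger than the difference of any member. That test does not show how well small shifts are recovered. Python 3.11.15 with numpy 2.4.6, pandas 2.3.3 and matplotlib 3.10.9, and R 4.3.3 with limma 3.58.1 were used.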

Additional observations from a re-analysis of the deposited data

How the results depend on the processing

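No paired analysis was possible because each cell line has 1 array and no shared replicate numbers, and for the same reason no array could be left out. Scaling each array to its median gave medians of 0.021 for replication members, 0.090 for mitotic members, −0.041 for other replication genes and 0.15 for other mitotic genes, and left 0 members 2-fold apart. Taking the 75th percentile over detected probes gave −0.35, −0.28, −0.42 and −0.23. Relative to the all-gene median, replication members were at −0.36 under quantile scaling and −0.11 with no filter on dim probes, and mitotic members at −0.30 and −0.082, and at −0.10 under normexp. The cause of the latter shifts was not tested. The gap between mitotic and replication medians stayed between 0.03 and 0.11. With 1 array per line, the difference between lines has no measured biological error, and which line each array came from stays unsettled.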
